A study of Mus musculus with 19 samples.

Results

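Nuclear-encoded oxidative phosphorylation genes were taken from the table of all Act-Seq cells by symbol, as every gene starting with Ndufa, Ndufb, Ndufc, Ndufs, Ndufv, Cox4 to Cox8, Uqcr or Atp5, and the 4 genes Sdha to Sdhd. The rule found 92 of 16233 genes and used no measured value. By their known roles they were 36 subunits of complex I, 7 assembly factors of complex I, 4 subunits of complex II, 8 of complex III, 18 of complex IV and 15 of complex V. The other members were Cox7a2l, a factor of respiratory supercomplexes, and Atp5s, Atp5sl and Atp5l-ps1, which match by name only. Ndufa4 and its paralogue Ndufa4l2 were counted with complex IV, to which the Ndufa4 protein is now assigned.

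Oxidative phosphorylation couples the oxidation of NADH and succinate in the inner mitochondrial membrane to the synthesis of ATP. Complexes I, III and IV pump protons as electrons pass to oxygen, complex II feeds electrons in from succinate, and complex V uses the proton gradient to make ATP. Neurons depend on this pathway to restore ion gradients after firing, whereas astrocytes are known for active glycolysis. Every complex except complex II also holds subunits encoded in the mitochondrial genome, and none of the tables holds such a gene, so only the nuclear-encoded transcripts were measured.

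Drop-seq captures single cells in droplets with barcoded beads and counts transcripts by unique molecular identifiers (UMIs), and it was run on medial amygdala tissue. All mice were male C57BL/6J, with no transgene or mutation named. Of 19 libraries, 17 were dissociated by Act-Seq, a protocol that blocks transcription while the tissue is taken apart, from naive mice (6), mice affected by seizure (2), mice stressed by immobilization (4), odor-exposed mice (4) and a saline-injected control (1). A conventional dissociation gave 2 libraries, 1 saline-injected and 1 seizure-affected. Mice were 9 weeks old in seizure 1, immobilization 2 and 3 and odor 1 and 2, and 8 weeks old in every other library, so age and group overlap in part. The labels do not say how seizures were induced or which odors were used.

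The all-cells table held 20679 cells of 16 Act-Seq libraries, with 116492 to 3723521 UMIs per library and a median of 1222 UMIs per cell. Naive 6, with 43 cells, reached 10 cells in no class and entered no class value. The neuron table held 2444 of these cells with identical counts, and 50 of the 92 members among its 3343 genes, so all members were read from the all-cells table. The dissociation table held 8071 cells of 5 libraries with 2102364 to 4309887 UMIs. Within the all-cells table any 2 libraries shared at most 2 cell barcodes. In the dissociation table the barcodes of the Act-Seq seizure cells went against their library names, yet all 2900 of these cells had identical counts under the same library name in the all-cells table, so library names were used and barcodes were not. The mismatch touches the conventional libraries too: conventional saline shares 1115 barcodes with seizure 1 of the same table, and conventional seizure shares 663 with seizure 2 of the all-cells table. Its part in the comparison of methods was not tested, and the counts of members called are given below also without each library. The labels do not tie libraries to individual animals, and p-values therefore reflect the spread between libraries, which may be technical. Levels are given in CPM, the UMI counts of a gene in the cells of 1 class and library scaled to the total of those cells. They count 3′ tags and carry no term for transcript length, and a share of UMIs also moves when other transcripts of the cell move.

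The authors' neuron label needs its measured limits beside it. In 14 of the 16 clusters of the neuron table, 11 neuron markers summed to 1832 to 3393 CPM, whereas 9 astrocyte markers summed to 7294 to 14511 CPM. These clusters were rich in transcripts of Kif5a (2506 to 4398 CPM), Map2 (2785 to 3692 CPM) and Camk2a (1158 to 2692 CPM). Clusters N9 and N12 alone had more neuron than astrocyte marker transcripts (4838 against 2459 CPM in N9, 4041 against 1895 CPM in N12). The authors' astrocyte class had 405 and 29114 CPM. The cells of the neuron table are therefore called neuron-table cells. Of these, 2293 carry the authors' neuron class in the all-cells table and 151 another class. The 6206 further cells of the authors' neuron class, with 2376 CPM of neuron and 13394 CPM of astrocyte markers, are called other neuron-class cells. The part of these marker levels in the results on neuron-table cells was not tested.

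RefSeq promoter windows (GRCm38.p6, 250 bases before to 50 bases after a start) matched 76 of the 92 members with 82 windows. The motif of NRF1, a transcription factor known to drive respiratory genes, was searched as CGCATGCG on both strands and stood in 13.4% of member windows and in 1.87% of all 32851 windows. The core of ETS factors such as GABP, CCGGAAG, stood in 20.7% and 8.86%, and that of YY1, AAGATGGCG, in 11% and 1.4%. The Sp1 box GGGGCGGGG stood in 15.9% and 11.4%. At least 1 of the NRF1, ETS and YY1 cores was found for 30 members, in 37.8% of member windows and 11.5% of all windows. A match describes these letters and is no evidence of binding. Parts of 4 windows are printed because these genes are among the members described in the results and show the motifs alone and together, with capitals for the matches, 5′ to 3′ on the gene's strand. Cox6a1 (chr5:115348959-115349128, minus strand) held NRF1 161 bases before its start and ETS on the other strand 16 bases before it. Atp5j (chr16:84834977-84835146, minus strand) held NRF1, YY1 and ETS cores 147, 88 and 61 bases before its start. Uqcr11 (chr10:80406822-80406901, minus strand) held an ETS core 66 bases before its start, and Cox6b1 (chr7:30626115-30626194, minus strand) held 1 on the other strand 28 bases before.
Cox6a1: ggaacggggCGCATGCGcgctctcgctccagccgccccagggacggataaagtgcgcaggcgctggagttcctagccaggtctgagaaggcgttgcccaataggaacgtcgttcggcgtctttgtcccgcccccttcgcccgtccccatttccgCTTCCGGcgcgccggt
Atp5j: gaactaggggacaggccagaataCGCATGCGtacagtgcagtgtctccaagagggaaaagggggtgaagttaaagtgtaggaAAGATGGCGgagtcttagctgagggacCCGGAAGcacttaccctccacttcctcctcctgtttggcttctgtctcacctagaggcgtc
Uqcr11: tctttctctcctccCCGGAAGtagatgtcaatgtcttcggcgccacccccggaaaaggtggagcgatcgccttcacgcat
Cox6b1: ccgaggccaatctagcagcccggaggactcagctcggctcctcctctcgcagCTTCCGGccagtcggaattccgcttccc

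Transcripts of the 92 genes took the largest share of UMIs in neuron-table cells and the smallest in microglia. In neuron-table cells the share was 4.68% ± 0.22 (SD, n = 14 libraries), from 4.25% through a median of 4.66% to 5.12%. Other neuron-class cells stood at 4.52% ± 0.27 (n = 15), and neuron-table cells were above them in 11 of 14 libraries, so these 2 did not separate beyond their spread. Mural cells, the contractile cells around small vessels, followed at 3.06% ± 0.42 (n = 12). Astrocytes stood at 2.71% ± 0.17, oligodendrocyte precursors at 2.42% ± 0.16 and endothelial cells at 2.41% ± 0.21 (n = 15 each). The order among these 4 middle classes was loose, since mural cells were above astrocytes in 10 of 12 libraries, astrocytes above endothelial cells in 12 of 15, and endothelial cells above precursors in 8 of 15. Oligodendrocytes stood at 2.08% ± 0.10 and microglia, the resident immune cells, at 1.39% ± 0.07 (n = 15 each), with oligodendrocytes higher in 15 of 15 libraries. Neuron-table cells were above astrocytes, endothelial cells, precursors, oligodendrocytes and microglia in 14 of 14 libraries and above mural cells in 12 of 12. The authors built the classes from these cells' transcripts, so this order is a description with no test. Median UMIs per cell differed between classes, from 864 in other neuron-class cells to 2188.5 in neuron-table cells. In the authors' precursor class, oligodendrocyte markers summed to 19241 CPM beside 9116 CPM of precursor markers. In oligodendrocytes the same sums were 142914 and 1703 CPM. Blood markers summed to 16566 CPM in the authors' endothelial class. The part of these transcripts in the shares was not tested.

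**Figure D1:**
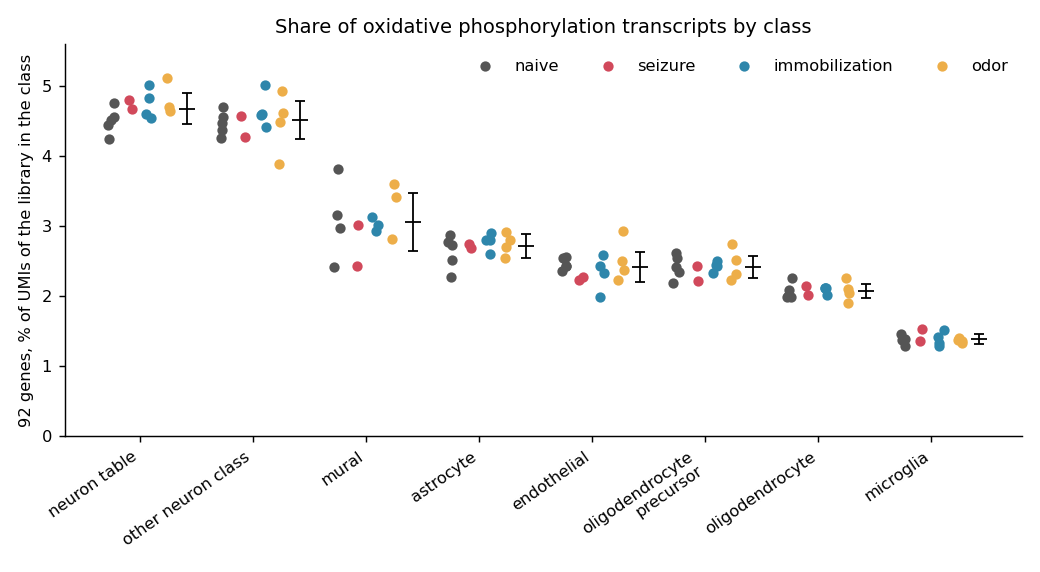
Each point is 1 library in 1 class, coloured by treatment group, the vertical axis is the percent of the class's UMIs that fell on the 92 genes, and bars give the mean ± SD over libraries. Neuron-table and other neuron-class cells sit near 4.7% and 4.5%, the middle classes overlap between 2% and 4%, microglia sit lowest near 1.4%, and the 4 groups overlap in neuron-table cells.

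Complex IV, cytochrome c oxidase, differed more between neuron-table cells and glial classes than the other complexes did. Its subunits took 1.64% of UMIs in neuron-table cells, 0.76% in astrocytes and 0.34% in microglia. Within a library, the complex IV share of neuron-table cells was 2.17 ± 0.21 times that of astrocytes (SD, n = 14, 1.86 to 2.69). The same ratio was 1.54 ± 0.14 for complex I, 1.21 ± 0.10 for complex II, 1.66 ± 0.13 for complex III and 1.59 ± 0.13 for complex V. The complex IV ratio exceeded each of these 4 in 14 of 14 libraries. Against microglia the ratios were 4.83 ± 0.42 for complex IV and 2.99, 1.72, 3.38 and 3.02 for complexes I, II, III and V. Complex IV thus made up 35.2% ± 0.87 of member UMIs in neuron-table cells, 28% ± 0.55 in astrocytes and 24.7% ± 1.16 in microglia. Complex I, with more subunits, made up 31.4%, 35.2% and 35.6%.

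The 6 members with the most UMIs over all cells were subunits of complex IV. Cox4i1, the common isoform of its largest nuclear-encoded subunit (chr8:120668222-120674207, plus strand), ranged over libraries from 2428 through a median of 2906 to 3364 CPM in neuron-table cells. It stood at 1349 ± 141 CPM in astrocytes and 644 ± 107 CPM in microglia, whose highest library (923 CPM) lay below the lowest astrocyte library (1099 CPM). Cox8a, the smallest subunit (chr19:7215153-7217616, minus strand), stood at 2860 ± 255, 1122 ± 129 and 425 ± 81.3 CPM in the same classes. For these genes the lowest neuron-table library was above the highest astrocyte library. Cox6a1, a regulatory subunit (chr5:115345642-115348981, minus strand), stood at 2200, 868 and 386 CPM, Cox6c at 2032, 824 and 328 CPM, and Cox6b1, which lies on the cytochrome c side, at 1366, 651 and 353 CPM. Ndufa4 (chr6:11900292-11907497, minus strand) stood at 1311, 719 and 298 CPM. Less abundant subunits showed the same order, with Cox7a2 at 994, 514 and 237 CPM, Cox5b, which binds zinc, at 941, 436 and 226 CPM, and Cox7b at 902, 481 and 246 CPM. Cox5a differed less, at 495, 376 and 156 CPM.

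Complex I members ranged from accessory subunits that were higher in neuron-table cells to subunits that were nearly level with astrocytes. Ndufb9 stood at 915, 446 and 141 CPM in neuron-table cells, astrocytes and microglia, Ndufa13 at 952, 546 and 273 CPM, Ndufa3 at 760, 404 and 227 CPM, and Ndufa5 at 659, 306 and 126 CPM. Of the core subunits that carry electrons, Ndufs1, an iron-sulphur protein, stood at 130, 126 and 52.5 CPM, and Ndufv1, which binds NADH and flavin, at 158, 125 and 62.0 CPM. Ndufs3, another core subunit, stood at 138, 136 and 94.6 CPM, and Ndufa9, an accessory subunit, at 114, 115 and 102 CPM. Ndufc2 was slightly higher in astrocytes than in neuron-table cells (489 and 450 CPM). Ndufa7 was highest in endothelial cells (665 CPM, against 526 CPM in neuron-table cells). The assembly factor Ndufaf4 went against the common order, with 58.6 CPM in neuron-table cells, 146 CPM in astrocytes and 76.6 CPM in microglia. These genes, outside the rule for named genes, were chosen after their values were seen.

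In complex III the small subunits Uqcr11 (900, 445 and 181 CPM in neuron-table cells, astrocytes and microglia), Uqcrh (873, 431 and 221 CPM) and Uqcrq (848, 401 and 210 CPM) stood well above astrocytes. The core proteins Uqcrc1 (303, 271 and 130 CPM) and Uqcrc2 (286, 253 and 125 CPM) and the Rieske iron-sulphur protein Uqcrfs1 (303, 290 and 106 CPM) did so much less. In complex V, too, subunits differed in how far they stood above astrocytes. Atp5e, the small epsilon subunit, stood at 728, 323 and 254 CPM and Atp5k at 729, 331 and 134 CPM. Atp5b, the catalytic beta subunit, stood at 1019, 684 and 326 CPM, and Atp5a1, the alpha subunit, at 689, 506 and 278 CPM. The ratio of neuron-table cells to astrocytes was 2.25 for Atp5e, 2.20 for Atp5k, 1.98 for Atp5l, 1.88 for Atp5j2 and Atp5h and 1.72 for Atp5j. It was 1.49 for Atp5b and 1.36 for Atp5a1. It was 1.59 for Atp5g1, 1.41 for Atp5d, 1.39 for Atp5g3, 1.38 for Atp5o, 1.25 for Atp5f1 and 1.14 for Atp5c1, which are not catalytic. Complex II, succinate dehydrogenase, had the smallest ratios of the 5 complexes, with the flavoprotein Sdha at 308, 201 and 127 CPM and the iron-sulphur protein Sdhb at 295, 293 and 202 CPM. Its membrane anchor Sdhd was level across the 3 classes (114, 129 and 118 CPM), while the other anchor, Sdhc, stood at 231, 153 and 99.9 CPM.

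Of the 89 members with at least 100 UMIs, 48 had their highest class mean in neuron-table cells and 19 in other neuron-class cells. A further 10 were highest in mural cells, 5 in precursors, 4 in astrocytes, 2 in endothelial cells and 1 in microglia. The lowest mean was in microglia for 69 members and in oligodendrocytes for 11. The median ratio of neuron-table cells to astrocytes over these members was 1.53, with quartiles of 1.23 and 1.88. The 10 members with the largest ratio of the highest class mean to the median of the other classes were all of complex IV: Ndufa4l2, Cox4i2, Cox6a2, Cox7b2, Cox7a1, Cox6b2, Cox8a, Cox4i1, Cox6c and Cox7c.

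The isoform pairs of complex IV gave large differences between classes. Ndufa4l2, a paralogue of Ndufa4 known to be induced by low oxygen (chr10:127514967-127517154, plus strand), stood at 519 ± 363 CPM in mural cells (n = 12, 135 through a median of 399 to 1290 CPM, 234 UMIs in all). It stood at 176 ± 144 CPM in endothelial cells (n = 15, 214 UMIs) and at no more than 1.22 CPM in any other class. In mural cells Ndufa4l2 gave 55.5% of the UMIs of the pair (Wilson 95% interval 50.7% to 60.1%), in endothelial cells 15.8% (13.9% to 17.8%), and in oligodendrocytes 0 of 2515 UMIs, which allows a share of up to 0.119%. Ndufa4 itself was lower in mural cells (431 ± 175 CPM) than in endothelial cells (694 CPM). Intervals and limits cover counting error only.

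Cox4i2, the alternative isoform of Cox4i1 known from lung and from cells that sense oxygen (chr2:152754173-152765037, plus strand), followed the same classes. It stood at 348 ± 161 CPM in mural cells (132 to 757 CPM, 157 UMIs) and at 86.4 ± 29.4 CPM in endothelial cells (43.7 to 136 CPM, 125 UMIs), and at no more than 4.26 CPM elsewhere. Its part of the pair's UMIs was 23.1% in mural cells (Wilson 95% interval 20.1% to 26.4%) and 7.22% in endothelial cells (6.09% to 8.53%). Cox4i1 remained the more abundant isoform there, at 1166 ± 271 and 1033 CPM. The authors' mural class also held fibroblast transcripts, with 5678 CPM of summed fibroblast markers beside 32676 CPM of mural markers, and their part in these levels was not tested. In the authors' endothelial class, mural markers summed to 5968 CPM beside 34092 CPM of endothelial markers. The part of mural transcripts in the endothelial levels of Ndufa4l2 and Cox4i2 was not tested. In the dissociation table, the saline-injected Act-Seq library and both conventional libraries hold cells that are not in the all-cells table. Their mural-like cells had Ndufa4l2 at 719, 482 and 232 CPM and Cox4i2 at 313, 201 and 464 CPM, from 5 to 46 UMIs per library and gene. Their endothelial-like cells had Ndufa4l2 at 182, 166 and 82.7 CPM and Cox4i2 at 88.2, 72.2 and 88.2 CPM, so both genes were present in vessel cells in libraries outside the first comparison.

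The other isoforms were rare. Cox6a2, known as the heart and muscle isoform, stood at 26.1 ± 18.2 CPM in neuron-table cells (4.12 to 81.2 CPM, 144 UMIs), which was 0.923% of the UMIs of the Cox6a pair. It stood at 12.9 CPM in other neuron-class cells and 9.15 CPM in microglia, and endothelial cells had no UMI of it. Cox6b2, known from testis, stood at 76.6 ± 43.1 CPM in mural cells, 47.2 CPM in precursors, 30.6 CPM in astrocytes and 18.3 CPM in neuron-table cells, where it gave 11.4%, 6.38%, 4.23% and 1.45% of the Cox6b pair. Cox7a1 reached 24.4 ± 30.5 CPM in mural cells from 11 UMIs, and Cox7b2 stood at 6.10 CPM in neuron-table cells and 4.97 CPM in astrocytes. Cox8b had 35 UMIs in all cells, 24 of them in astrocytes. Among the 3 genes for the identical c subunit of complex V, Atp5g3 gave between 60.1% of UMIs in oligodendrocytes and 76.6% in mural cells, and Atp5g2 had 41 UMIs in all. These genes share near-identical coding sequence, as do Atp5l and Atp5l-ps1, so how the counting split their reads is uncertain.

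**Figure D2:**
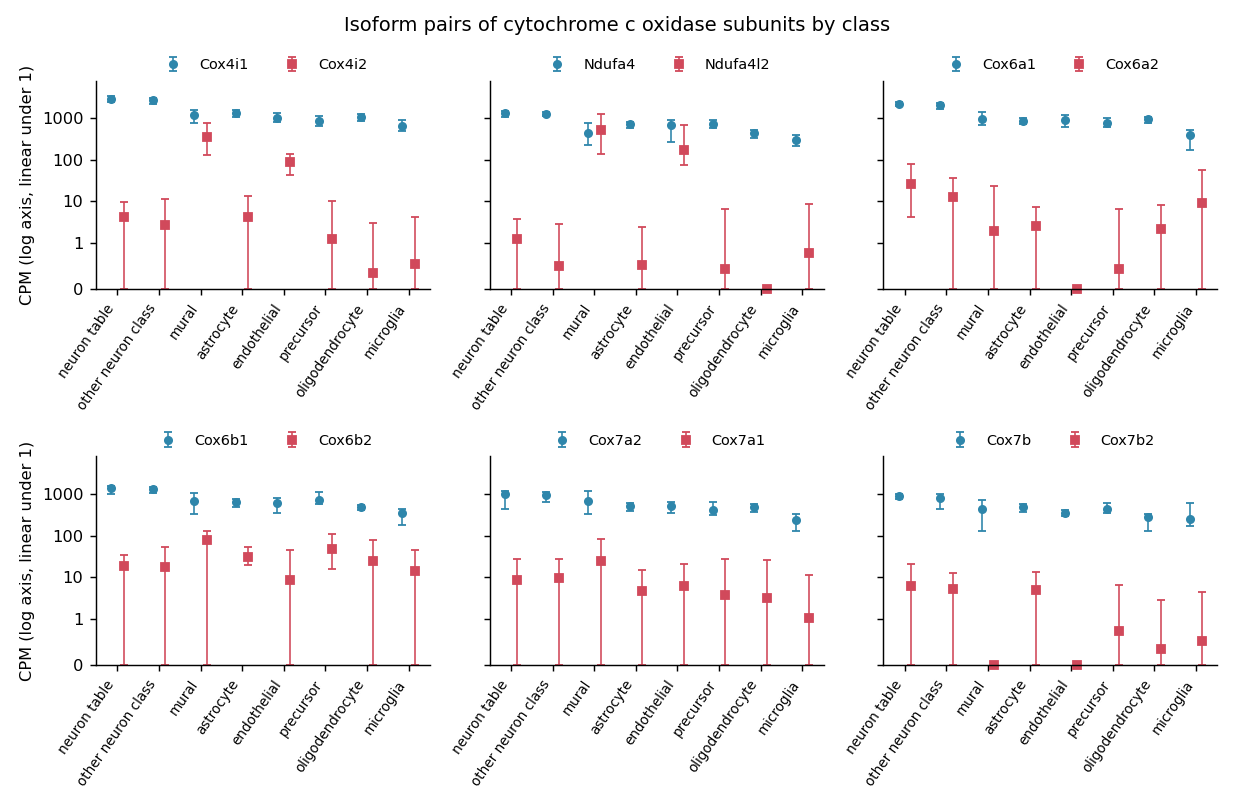
Each panel sets the common isoform of a complex IV subunit (circle) beside the rarer one (square) by class, as mean CPM over libraries with bars from the lowest to the highest library, on an axis that is logarithmic above 1 and linear below. Cox4i2 and Ndufa4l2 lie far above their levels in other classes in mural and endothelial cells alone, and Ndufa4l2 passes Ndufa4 in mural cells.

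Across the 16 clusters of the neuron table the share of the 92 genes was nearly flat, apart from N9 and N12. The other 14 clusters lay between 4.57% (N13) and 5.34% (N10). N9 (117 cells) stood at 3.36% and N12 (103 cells) at 1.71%. In N12 68.9% of cells were below 2.5%, and its quartiles over cells were 0.58%, 0.81% and 4.08%, so most but not all of its cells were low. The 3 libraries with at least 10 cells of N12 gave 0.95% to 1.81%. Summed over the cells of a group, N12 stood at 1.36% in naive (47 cells), 1.64% in seizure (21 cells), 1.63% in immobilization (22 cells) and 3.68% in odor libraries (13 cells). The authors formed the clusters from these cells' transcripts, so differences between clusters are described and not tested.

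The low share in N12 ran through nearly the whole list. Of 85 members with at least 100 UMIs in neuron-table cells, 80 were below the median of the 14 other clusters and 74 were lowest of all clusters in N12, with a median ratio of 0.344. The widest range over clusters belonged to Ndufb4 (316 CPM in N10, 41.2 CPM in N12), Uqcrb, a subunit at the ubiquinone site (541 CPM in N4, 86.5 CPM in N12), Ndufa9 (147 and 24.7 CPM), the assembly factor Ndufaf3 (89.1 and 12.4 CPM) and Sdhb (377 CPM in N2, 78.3 CPM in N12). The narrowest range was that of Ndufs3 (168 CPM in N4, 98.9 CPM in N12), Ndufaf4 (65.7 CPM in N3, 35 CPM in N1), Ndufs1 (179 CPM in N13, 99.4 CPM in N9, 124 CPM in N12), Ndufv1 and Uqcrc1. Ndufs3 and Ndufs1 were also nearly level between neuron-table cells and astrocytes.

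The same clusters stood apart in other transcripts. As given above, N9 and N12 alone had more neuron than astrocyte marker transcripts, so the clusters richest in neuron markers had the lowest shares of the members. The part of these marker levels in the shares was not tested. Nuclear long noncoding RNAs such as Malat1, Meg3 and Snhg11 took 10.75% of UMIs in N12, 2.99% in N9 and 0.81% on average in neuron-table cells, and ribosomal protein genes took 1.88%, 3.27% and 5.13%. Over the 16 clusters the members' share correlated with that of ribosomal protein genes (Pearson r = 0.97) and inversely with that of the long noncoding RNAs (r = -0.96). Without N9 and N12 the values over 14 clusters were 0.82 and -0.71. For glycolysis genes r went from 0.80 to -0.73 without those 2 clusters, and for the citric acid cycle from 0.90 to -0.14, so both rested on N9 and N12. The clusters share libraries and the total to which shares are scaled, and the part of nuclear RNA in the members' share was not tested.

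**Figure D3:**
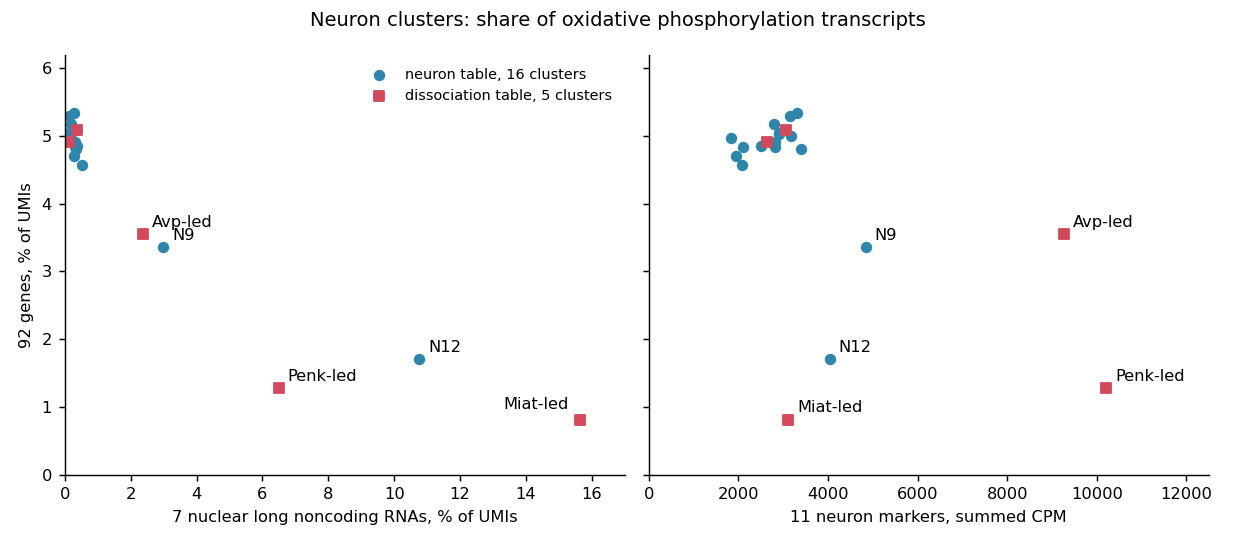
Each point is 1 cluster of the neuron table (circle) or of neuronal clusters in the dissociation table (square); the vertical axis is the percent of UMIs on the 92 genes, and the horizontal axes are the percent of UMIs on 7 nuclear long noncoding RNAs and the summed CPM of 11 neuron markers. N9, N12 and the Avp-led, Penk-led and Miat-led clusters lie lower and further right on the noncoding RNA axis than the cluster group near 5%. N9 and N12 also have higher summed neuron markers than the other clusters of the neuron table.

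The next comparisons asked whether seizure, immobilization or odor moved these transcripts in any class. No member passed edgeR's quasi-likelihood test at a Benjamini-Hochberg adjusted 0.05 in any of the 24 comparisons of a group with naive libraries, and DESeq2 also called 0. At an unadjusted p under 0.05 there were 0 to 7 members of the 60 to 85 tested with edgeR, and 0 to 5 with DESeq2. With edgeR this was 0% to 9.09% of members, beside 3.12% to 10.5% of all genes tested at the same threshold. After immobilization it was 9.09% of members and 4.10% of genes in precursors, and 7.14% and 9.67% in astrocytes. Few genes of any kind were called. After seizure 0.466% of all genes tested were called in astrocytes, 0.63% in endothelial cells, 0.431% in microglia, 0.686% in mural cells, 0.102% in neuron-table cells, 0.134% in oligodendrocytes, 0.116% in other neuron-class cells and 0.122% in precursors. After immobilization the same background was 1.51%, 1.76%, 1.46%, 0.0%, 0.0795%, 0.9%, 0.0812% and 0.0%, and after odor 0.656%, 0.0%, 0.0923%, 0.0%, 0.125%, 0.524%, 0.058% and 0.0204%, in the same order of classes. A count of 0 members is near these backgrounds. Immediate early genes, which neurons switch on within minutes of firing, did pass after seizure in the same fits, with 6 of 14 tested higher in neuron-table cells (Arc, Egr1, Egr4, Fos, Fosb and Junb).

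The share of the 92 genes in neuron-table cells was 4.52%, 4.76%, 4.44%, 4.56% and 4.25% in naive 1 to 5. It was 4.80% and 4.67% after seizure, 5.01%, 4.82%, 4.61% and 4.55% after immobilization, and 4.70%, 5.12% and 4.65% after odor. The groups overlapped, although most treated libraries lay in the upper part of the naive range or above it. The members' median log2 fold change was 0.11, 0.09 and 0.12 after seizure, immobilization and odor, beside a median near 0 over all genes tested, and 65, 69 and 74 of 85 members were above 0. Complex IV members had medians of 0.16, 0.11 and 0.15. These 3 comparisons share the naive libraries, so they are no separate support for each other, and the median SE of a member was 0.16 to 0.19. The nuclear long noncoding RNA share of neuron-table cells moved as well, from 1.10% ± 0.51 in naive libraries to 0.82%, 0.81% and 0.33% ± 0.18, and 3 of 7 such RNAs passed the test lower after odor (Meg3, Miat and Snhg11). Its part in the members' values was not tested.

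The other classes had member medians of similar size, in either direction. Astrocyte shares averaged 2.63% in naive, 2.72% in seizure, 2.78% in immobilization and 2.74% in odor libraries. The members' median log2 there was 0.09, 0.07 and 0.07 after seizure, immobilization and odor, beside -0.01, -0.02 and -0.01 for all genes, with 55, 58 and 60 of 84 members above 0. In microglia after seizure it was 0.10, beside -0.01. In endothelial cells both seizure libraries (2.23% and 2.27%) lay below the naive range of 2.37% to 2.56%, with a members' median log2 of -0.13 and 22 of 78 members above 0, yet no member passed the test there. In mural cells the members' median was -0.11 after seizure and 0.15 after odor. In bulk or summed counts of a class, fewer transcripts per cell and a different mix of cells within the class cannot be told apart.

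Ndufa4l2 in mural cells had the smallest unadjusted p of the members in all 3 mural comparisons, and it is described here after these values were seen. It stood at 1290, 1098, 326 and 816 CPM in naive 1 to 4, at 393 and 209 CPM after seizure, at 406, 434 and 543 CPM after immobilization and at 135, 344 and 235 CPM after odor. Naive 3 lay among the treated libraries and the other 3 naive libraries above all of them. Each value rests on 5 to 47 UMIs. The 3 mural comparisons share these naive libraries, so they are no separate support for each other. The log2 difference from naive was -1.84 after odor (SE 0.44, unadjusted p 0.000469), -1.45 after seizure (SE 0.50, unadjusted p 0.0097) and -0.99 after immobilization (SE 0.39, unadjusted p 0.0189), in edgeR's fit with 12 libraries. None passed adjustment over the 1020 genes tested (adjusted p 0.159, 0.363 and 0.999). For odor the adjusted p ranged over the alternatives from 0.0324 without naive 3 to 0.678 with age as a covariate. With age as a covariate the log2 difference after odor was -2.085 (SE 0.55). Age and group overlap in part, and the part of age was not tested. Cox4i2 gave 757, 397, 407 and 345 CPM in naive, 229 and 209 CPM in seizure, 324, 396 and 465 CPM in immobilization and 243, 132 and 275 CPM in odor libraries (log2 -1.13 ± 0.39 SE after odor, adjusted p 0.385). In endothelial cells the log2 differences of Ndufa4l2 were 0.54, -0.0045 and 0.15 after odor, seizure and immobilization (adjusted p 0.906 to 1.00), and none passed; the difference from mural cells was not tested.

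The dissociation table compared conventional dissociation with Act-Seq in saline-injected and seizure-affected mice, with 3 Act-Seq and 2 conventional libraries. Its cells were clustered and named from markers, and names were checked on the cells also found in the all-cells table: 702 of the authors' astrocytes were astrocyte-like and 95 fell in unnamed clusters, whereas 61 cells of the authors' neuron class were neuron-like, 50 astrocyte-like and 1094 in unnamed clusters. Most of the latter lay in a cluster led by Kif5a, with 2642 CPM of neuron and 12576 CPM of astrocyte markers, which resembled most neuron-table clusters. Its share of the 92 genes was 4.93%, 4.95% and 4.79% in the Act-Seq libraries (saline, seizure 1, seizure 2) and 5.0% and 4.80% in the conventional libraries (saline, seizure). The ranges of the methods overlapped, with no test made, and the conventional values rest on 13 and 32 cells, against 692, 634 and 327. Values below follow the same order of the 5 libraries.

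Summed over all cells of a library, the 92 genes took 3.25%, 3.48% and 3.03% of UMIs with Act-Seq and 2.54% and 2.30% with conventional dissociation, with no overlap. In edgeR's fit, with terms for method and seizure, 21 of 89 members tested passed lower in conventional libraries and 0 higher, where 8.1% of all genes tested were called lower, 8.05% higher and 16.1% in all. The members' median log2 was -0.39, beside 0.01 for all genes. Cox8a stood at 1507, 1750 and 1441 CPM against 680 and 675 CPM (log2 -1.25, SE 0.18, adjusted p 0.00165). Cox6a1 stood at 1365, 1524 and 1231 CPM against 743 and 716 CPM (log2 -0.97, SE 0.18, adjusted p 0.00566), and Cox4i1 at 1922, 1961 and 1618 CPM against 996 and 1068 CPM (log2 -0.88, SE 0.17, adjusted p 0.00839). Uqcr11 of complex III stood at 550, 609 and 497 CPM against 294 and 290 CPM (log2 -0.97), and Ndufb9 of complex I at 609, 599 and 546 CPM against 334 and 317 CPM (log2 -0.91). Further down the list were Cox6c (log2 -0.84), Cox6b2 (-0.83), Atp5e (-0.80), Cox7c (-0.74), Uqcrh (-0.74), the complex I subunit Ndufa2 (-0.69) and Cox7a2l (-0.68). By complex, 7 of 17 members of complex IV fell (median log2 -0.66), 4 of 8 of complex III (-0.52), 3 of 14 of complex V (-0.47), 2 of 4 of complex II (-0.33), 4 of 36 of complex I (-0.35) and 0 of 7 assembly factors.

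These counts depended on the cells summed and on single libraries. Without the Kif5a-led cluster, an alternative chosen after seeing the data, 0 of 89 members passed (14.0% of all genes still did) and the members' median log2 was -0.08. Without the neuron-like, Kif5a-led and Ddn-led clusters, chosen likewise, 1 member passed, beside 6.72% of all genes. The count was 4 without the saline Act-Seq library, 12 without seizure 2, 21 without seizure 1, and 1 without either conventional library. In the same sums over all cells, the long noncoding RNA share was 0.75%, 1.18% and 1.84% against 3.21% and 2.83%, with 5 of 7 of those RNAs higher and 1 lower, and 11 of 18 immediate early genes were higher.

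**Figure D4:**
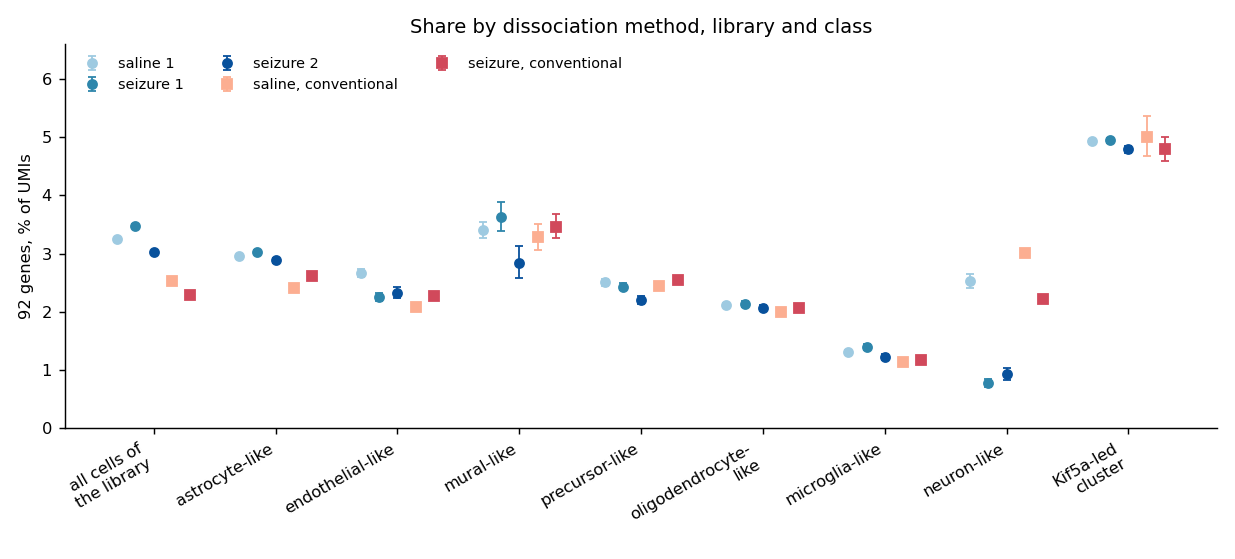
Points give the percent of UMIs on the 92 genes in each of the 5 libraries of the dissociation table, for all cells and by class, with Wilson 95% intervals that cover counting error only. All cells of the library separate by method, the values of the Kif5a-led cluster overlap, and neuron-like cells differ most between libraries.

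Within astrocyte-like cells the summed share was lower, but most single members differed little. The share was 2.95%, 3.03% and 2.89% against 2.40% and 2.62%, and 4 of 86 members tested passed lower and 0 higher (4.03% of all genes were called lower, 1.54% higher and 5.57% in all). The 4 of 86 is close to the background of lower calls, and the members' median log2 was -0.07 beside 0.02 for all genes, with 33 of 86 above 0. They were Cox7a2l (196, 178 and 171 CPM against 84.0 and 90.6 CPM, log2 -0.99, SE 0.20, edgeR adjusted p 0.000351), Cox6a1 (1104, 1088 and 1018 CPM against 703 and 671 CPM, log2 -0.56, SE 0.13), Cox8a (1235, 1322 and 1307 CPM against 755 and 908 CPM, log2 -0.52, SE 0.12) and Cox6c (933, 1004 and 963 CPM against 550 and 790 CPM, log2 -0.42, SE 0.13). The conventional libraries lay below every Act-Seq library for each of the 4. None passed without the saline Act-Seq or without the saline conventional library, 1 passed without the conventional seizure library, 3 passed without seizure 1, and 6 passed without seizure 2.

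Neuron-like cells went the other way, but their cells differed between methods. The share was 2.53%, 0.77% and 0.93% against 3.01% and 2.21%, from 29, 37 and 24 cells against 481 and 264. The conventional cells came mostly from a cluster led by Penk (454 of 474 cells, share 1.28%) and a cluster led by Avp (289 of 302 cells, share 3.55%), and the Act-Seq cells from a cluster led by Miat (57 of 59 cells, share 0.81%). Long noncoding RNAs took 5.19%, 13.5% and 13.6% against 3.35% and 4.87% of UMIs in these cells. Here 10 of 68 members tested passed higher and 0 lower (5.89% of all genes were called higher, 7.16% lower and 13.1% in all), with a members' median log2 of 0.85 beside 0.11 for all genes. The seizure term of the same fit had a members' median log2 of -0.85, beside 0.14 for all genes, with 1 of 68 members above 0. For that term 0 members passed, and 30 of 68 (44.1%) had an unadjusted edgeR p under 0.05, beside 8.57% of all genes. Both terms rest on the same 5 libraries, and their parts in these values were not tested apart. Between methods, Sdhb had the largest rise, with a log2 of 2.01 (SE 0.57) from 7, 1 and 2 UMIs against 607 and 154 UMIs. Ndufc2 stood at 298, 138 and 246 CPM against 710 and 732 CPM (log2 1.65, SE 0.43, edgeR adjusted p 0.00395). The others were Ndufa1 (log2 1.59), Ndufc1 (1.56), Cox5a (1.47), Atp5j (1.43), Ndufb8 (1.35), Cox7a2 (1.27), Cox6b1 (1.25) and Ndufa4 (1.14). DESeq2 called 1 of the members, and the edgeR count was 0 without seizure 1 or without conventional seizure, 2 without seizure 2, 35 without conventional saline and 39 without saline.

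In the other classes no member passed. The counts were 0 of 80 tested in endothelial-like cells (0.443% of all genes called), 0 of 76 in microglia-like cells (3.07%), 0 of 53 in mural-like cells (3.15%), 0 of 83 in oligodendrocyte-like cells (1.19%) and 0 of 83 in precursor-like cells (0.163%). At an unadjusted p under 0.05 edgeR gave 0, 1, 1, 2 and 1 members in these classes, and DESeq2 called 0 in each. These edgeR counts were 0%, 1.32%, 1.89%, 2.41% and 1.20% of the members tested. Of all genes tested, 5.71%, 10.99%, 6.70%, 8.47% and 4.94% were under that unadjusted threshold. Oligodendrocyte-like cells had shares of 2.12%, 2.13% and 2.07% against 2.0% and 2.06%, and precursor-like cells 2.51%, 2.43% and 2.20% against 2.45% and 2.54%. Immediate early genes passed higher in the same classes, with 13 of 13 in microglia-like cells and 10 of 12 in oligodendrocyte-like cells.

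**Figure D5:**
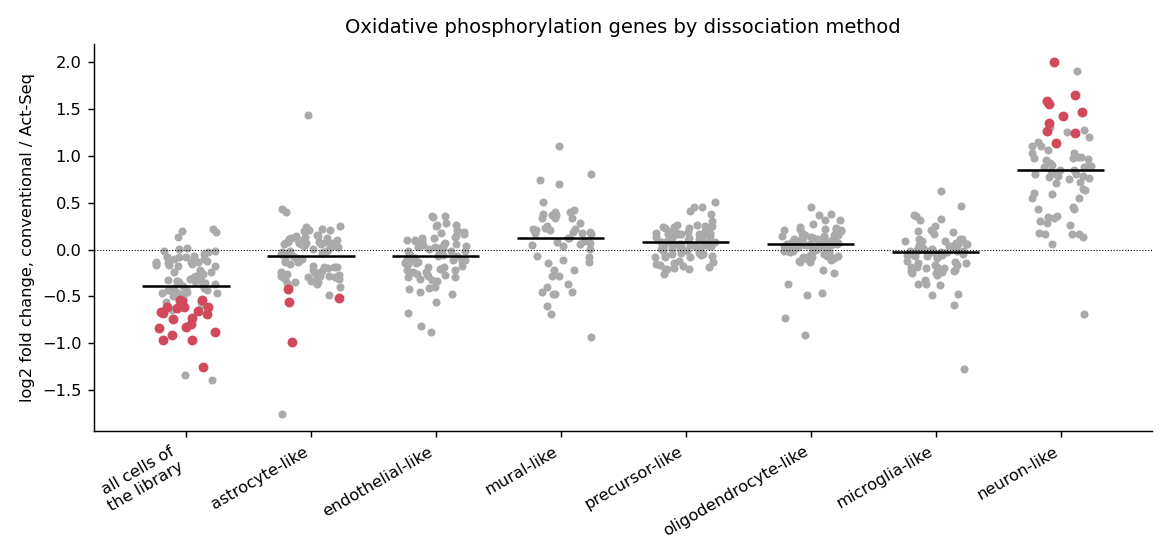
Each point is 1 member's log2 fold change, conventional over Act-Seq, for all cells and by class; red points passed edgeR's test at an adjusted 0.05 and black lines are medians. Points lie mostly below 0 for all cells (median -0.39), close to 0 in glial and vessel classes, and above 0 in neuron-like cells (median 0.85).

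Between neuron-table cells and astrocytes, glycolysis and citric acid cycle genes did not follow the members, whereas some chain partners and assembly genes did. Against microglia, glycolysis and citric acid cycle genes were also higher in neuron-table cells, as the members were. Within a library, glycolysis genes took nearly the same share in neuron-table cells as in astrocytes (ratio 1.01 ± 0.11, n = 14), as did genes of the citric acid cycle (1.07 ± 0.08), beside 1.72 ± 0.14 for the members and 3.06 ± 0.37 for ribosomal protein genes. Aldoc, a glycolytic aldolase, stood at 4861 CPM in neuron-table cells and 5296 CPM in astrocytes, and Cs, citrate synthase, at 307 and 362 CPM. Aldoc had 127894 UMIs over all cells, beside 29378 for Ldhb, the next most abundant of the 17 glycolysis genes. The glycolysis ratios therefore lean on Aldoc, and ratios without it were not tested. Against microglia, ribosomal protein genes had a ratio of 1.73, glycolysis 3.97 and the citric acid cycle 2.19, and the members 3.37 ± 0.22. Carriers of the inner membrane split, with the ATP carrier Slc25a4 higher in neuron-table cells (1809 and 1346 CPM) and its paralogue Slc25a5 higher in astrocytes (741 and 1066 CPM). Assembly genes outside the rule, such as the copper chaperone Cox17 (386 and 185 CPM) and Uqcc2 (395 and 167 CPM), stood higher in neuron-table cells. Of the regulators of mitochondrial biogenesis, the coactivator Ppargc1a stood at 52.6 CPM in neuron-table cells, 133 CPM in astrocytes and 4.72 CPM in microglia. In the 24 comparisons with naive libraries no gene of the glycolysis, citric acid cycle, chain partner, assembly or regulator lists passed the test. Between dissociation methods, over all cells, 5 of 17 glycolysis genes, 3 of 16 of the citric acid cycle and 3 of 14 chain partners were lower and none of these was higher, where 8.1% of all genes were lower. As shown above for the members, counts over all cells can depend on the Kif5a-led cluster and on single libraries, which was not tested for these lists.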

How the data were processed

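UMI counts per gene and cell were deposited by the authors as 3 tables, with library and class or neuron cluster in the cell names of the first 2 and library names in the dissociation table. Per the submitters' processing notes, bcl2fastq 2.17.1.14, STAR 2.5.0a and the mm10 build were used. Neither the counting tool nor its use of strand nor the cell filter is named there or in the labels, and reads of overlapping genes may therefore be mixed. All 19 libraries were mapped to groups from the labels, and no per-sample column was left out.

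For each class, counts were summed over the cells of a library if there were at least 10. The sums were tested by edgeR 4.0.16, with its quasi-likelihood F-test, in R 4.3.3 (TMM scaling, filterByExpr, Benjamini-Hochberg adjustment over all genes tested in a class, threshold 0.05), the naive, seizure, immobilization and odor libraries sharing 1 fit for each class. The dissociation fit had terms for method and seizure over 5 libraries. A standard error was taken as the log2 fold change over the square root of F. DESeq2 1.42.0 was an alternative. Cells of the dissociation table were clustered by the Leiden method (leidenalg 0.10.2 and scanpy 1.11.5; resolution 0.8 on 15 neighbours in 30 components of 2000 variable genes, seed 1), leaving out the members and the immediate early genes. No doublet caller was run, and removal of the 5% of cells with most UMIs was tried in its place. The fits of neuron-table cells, of astrocytes and of all cells and astrocyte-like cells between methods were tested on simulated data. Genes given a log2 change of 1 passed in the right direction in 52.7% for neuron-table cells after seizure and 58.8% for astrocytes after immobilization. Between methods this was 53.5% for all cells and 41.8% for astrocyte-like cells. For a log2 change of 2 the values were 90.6%, 93.9%, 92.9% and 87.2%, and changes smaller than 1 were not simulated. Clusters were named X-like from marker lists. Class levels are mean ± SD over libraries, described without a test.

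Genes were named by rule: members past the threshold in a fit, at most 12 per comparison by size; the 6 of highest CPM; the 10 with at least 100 UMIs that stand out most in a class; isoform families; the 5 of widest and 5 of narrowest range over neuron clusters on log2(CPM + 10); the 3 most abundant of each other list; and the 5 genes most alike in pattern. Members and lists were chosen with earlier results of these data known. Same replicate numbers did not pair the libraries in the labels. Gene positions are those of Ensembl gene entries, and promoter windows are RefSeq's on GRCm38.p6.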

Additional observations from a re-analysis of the deposited data

Results flagged for a closer look

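In oligodendrocytes, immobilization 3 had a share of 2.02% for the 92 genes, below the 2.11% to 2.12% of the other 3 immobilization libraries, from 181 cells and 487485 UMIs. It stands apart because the gap was large beside the narrow range of the other libraries, and it lay within the range of all libraries of this class (1.91% to 2.26%). Of 21 sets of libraries looked at in this way 1 had such a library, and chance gives about 1 in 20.

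The share of the 92 genes moved in opposite directions between dissociation methods in neuron-like cells and in 3 of the glial classes. Conventional minus Act-Seq was 0.48, 1.44 and 1.29 percentage points in neuron-like cells (saline pair, then conventional seizure against seizure 1 and against seizure 2). It was -0.55, -0.41 and -0.26 in astrocyte-like cells, -0.11, -0.07 and -0.0060 in oligodendrocyte-like cells and -0.18, -0.22 and -0.052 in microglia-like cells. Precursor-like cells, also glial, did not share this direction (-0.056, 0.11 and 0.35). The mean difference of neuron-like cells exceeded that of astrocyte-like cells by 1.48 percentage points, that of oligodendrocyte-like cells by 1.13 and that of microglia-like cells by 1.22, and these differences were not tested. The neuron-like Act-Seq values rest on 24 to 37 cells per library and, in the conventional libraries, on other clusters.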

How the results depend on the processing

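The 24 counts of members against naive libraries were 0 in 365 of 367 alternatives. The exceptions were 1 (Atp5l, log2 -0.84, adjusted p 0.0488) in astrocytes after immobilization without a filter on low counts, and 1 (Ndufa4l2) in mural cells after odor without naive 3, where leaving out a library gave 0 to 1. With the replicate number as a block (replicate block) all 24 counts were 0; same-numbered libraries did not deviate together in astrocytes (correlations from -0.089 to 0.153, median 0.023 over 18 pairs). Over all cells of the dissociation table the count of 21 went to 37 without the 5% of cells with most UMIs, to 1 without neuron-like, Kif5a-led and Ddn-led clusters, to 0 without the Kif5a-led cluster, and to 1 to 21 without a library. In astrocyte-like cells 4 went to 0 with finer clusters, to 1 without those 5% of cells, and to 0 to 6 without a library. In neuron-like cells 10 went to 1 with DESeq2, to 27 without those cells, and to 0 to 39 without a library; it was 15 with no filter. Over 35 named gene and class pairs of these fits, 371 alternatives gave 198 on the same side of the threshold, 173 no longer past it and 0 reversed. The astrocyte share was 2.42% as a mean over cells. The neuron-table share was 4.97% without long noncoding RNAs and ribosomal protein genes in the total, and 4.90% without N9 and N12, chosen after seeing the data. Shares over all cells, with that total, as a mean over cells and for subunits only, were 3.38%, 3.15% and 3.19% for saline, 3.65%, 3.39% and 3.41% for seizure 1, 3.17%, 2.93% and 2.96% for seizure 2, 2.66%, 2.18% and 2.47% for conventional saline and 2.41%, 2.15% and 2.24% for conventional seizure. The causes were not tested. Few cells and UMIs in mural cells, where 60 members were tested, and 2 seizure libraries limit what these counts could show.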

Other observations

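Over 23 points, the 7 other classes and the 16 neuron clusters, the genes outside the list whose log2(CPM + 10) followed the members' share most closely, among 4074 genes with a mean of at least 50 CPM, were 2010107E04Rik (Pearson r = 0.989), Usmg5 (0.983), Romo1 (0.971), Tomm7 (0.965) and Rpl22l1 (0.964). Usmg5 stood at 83.6 CPM in microglia, 203 CPM in astrocytes, 124 CPM in N12 and 596 CPM in N10. At the other end, and named after their values were seen, were D4Wsu53e (r = -0.974), Rbm5 (-0.950), Srsf2 (-0.949) and Clk1 (-0.942), with Rbm5 and Srsf2 known from RNA splicing and Clk1 a kinase of splicing factors. The points share libraries and totals, so these values only describe likeness.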
